A study of Homo sapiens with 11 samples.

Results

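The genes described here are 10 members of the SRC and VAV signalling module: the SRC family kinases SRC, FYN, YES1 and LYN, their inhibitory kinase CSK, the focal adhesion kinases PTK2 (FAK) and PTK2B (PYK2), the scaffold BCAR1 (p130CAS), and the exchange factors VAV2 and VAV3. They were taken by symbol from the authors' deposited table, where each of the 10 had 1 row among 23327 named genes. The set was proposed with results of the knockdown comparison in view. Its values in that comparison are therefore given as a description, and the adjusted p-values printed for members are those of the authors and support nothing beyond that description.

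RNA came from liver tumours formed by PANC1 LM3 cells, a liver-metastatic subline (generation 3) of PANC1, which is an established line of human pancreatic ductal carcinoma. For each group 500000 cells went into the spleen on day 1, and tumours were collected on day 21. The control group (4 libraries) carried the hairpin shCTRL in a background labelled WT, and the knockdown groups carried 1 of 2 hairpins labelled NPTX1 knock down, shNPTX1_3 (3 libraries) and shNPTX1_4 (4 libraries). All groups shared the parent subline, so what they show is 1 cell background. The host animals, and whether each replicate came from its own animal, are not stated in the labels, and the p-values reflect only how far these libraries scatter, which may be technical in part.

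SRC family kinases sit at the inner face of the plasma membrane and are switched on by integrins and growth factor receptors. CSK holds them inactive by phosphorylating a tyrosine in their tail. At focal adhesions, autophosphorylated FAK recruits SRC, and the pair phosphorylates paxillin and BCAR1. Phosphorylated BCAR1 binds CRK, which brings in the DOCK1 and ELMO exchange module for RAC1. VAV proteins are a second route to the same GTPases: tyrosine phosphorylation by SRC or SYK family kinases opens them so that they can load RAC proteins with GTP. In carcinoma cells this module is known for its role in adhesion turnover, migration and invasion. All of these steps are changes in protein state, which RNA levels do not measure.

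Every value below is a mean normalized count of a group (reads divided by a size factor per library and averaged by the authors), a ratio of 2 such means, or a log2 fold change of the 7 knockdown libraries together over the 4 controls with its standard error. Single libraries entered only where whole reads could be recovered, so the group means carry no SD. In these bulk tumours, fewer cells of a type and less RNA per cell cannot be told apart. Whole-read steps in low values placed the libraries at about 13000000 to 41200000 gene-assigned reads each for shCTRL, 10800000 to 24000000 for shNPTX1_3 and 16600000 to 26100000 for shNPTX1_4. The targeted gene came first as a check of the labels: the authors' deposited table lists NPTX1 at 103 normalized counts in shCTRL tumours, 46.5 with shNPTX1_3 and 38.4 with shNPTX1_4, a log2 fold change of -1.26 ± 0.24 (SE; DESeq2 adjusted p = 3.65e-06). For the 3 shNPTX1_3 libraries the mean of NPTX1 could be split into 29.6, 37.2 and 72.6 normalized counts. For shNPTX1_4, 2 splits gave the mean of NPTX1 (0.12 expected by chance), with libraries from 2.94 to 103 normalized counts over both, so a library as high as the shCTRL mean of 103 is among those splits. None of the 8 markers of PANC1 and epithelium was under 10 normalized counts in all groups, and 4 were higher in knockdown tumours per the authors' deposited table. Their summed means were 77002, 125672 and 97502 normalized counts for shCTRL, shNPTX1_3 and shNPTX1_4, of which VIM gave 60617, 68672 and 68305. The other 7 markers summed to 16385, 57000 and 29197 normalized counts.

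Counted over the 10 genes, 1 was higher in knockdown tumours (VAV3), 1 was lower (VAV2) and 8 did not pass an adjusted p of 0.05 per the authors' deposited table (DESeq2). Across the 18426 named genes with an adjusted p, 27.3% passed, 15.8% as higher and 11.5% as lower. As the genes were chosen on this contrast, nothing is read from the comparison of these shares. The median log2 fold change was -0.11 over the 10 genes and -0.01 over all genes tested, both from the authors' deposited table.

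**Figure D1:**
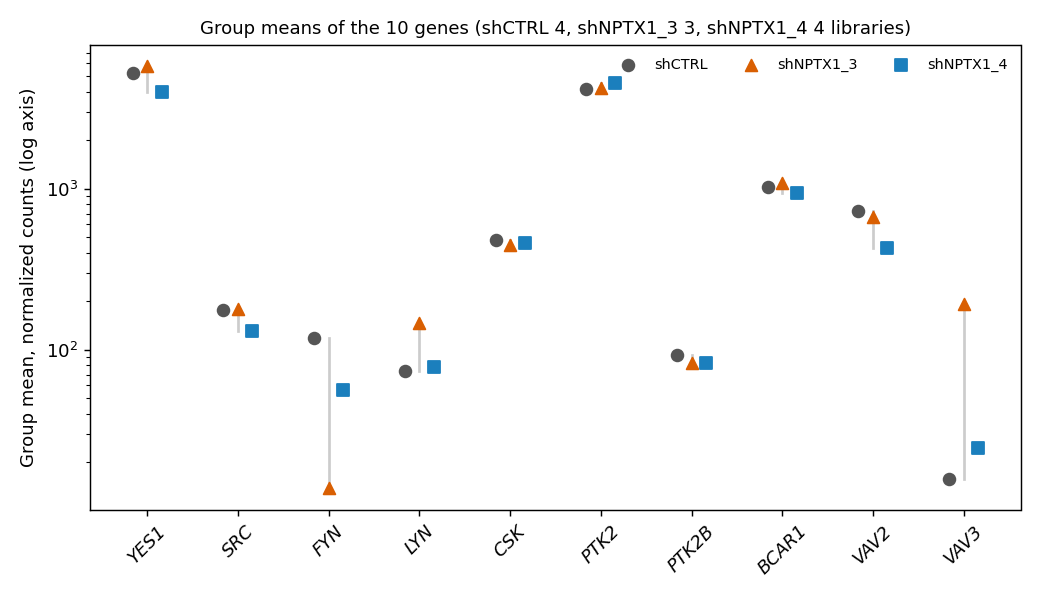
Mean normalized counts of each gene (log axis) in shCTRL (4 libraries, circles), shNPTX1_3 (3 libraries, triangles) and shNPTX1_4 (4 libraries, squares), with a grey line from the lowest to the highest group mean. The group means of VAV3 and FYN lie farthest apart, and those of CSK, PTK2, PTK2B and BCAR1 lie closest together.

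YES1, a ubiquitously expressed SRC family kinase, was by far the most abundant of the family members described here. Per kilobase of annotated exon, YES1 stood at 1088 normalized counts in shCTRL tumours, 1199 with shNPTX1_3 and 824 with shNPTX1_4. SRC followed at 37.7, 37.8 and 27.9 normalized counts per kilobase, or close to 3% of the kinases summed here in each group. YES1 made up 93.4%, 93.6% and 93.4% of the summed per-kilobase level of the 8 kinases SRC, FYN, YES1, LYN, FGR, LCK, BLK and FRK in shCTRL, shNPTX1_3 and shNPTX1_4. YES1 was thus the largest part of that sum in every group. In GENCODE, YES1 is overlapped by 2 antisense genes, and without a stated strand setting reads of the shared stretches are uncertain.

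The means of YES1 lay on both sides of control. The authors' deposited table lists its means as 5269 normalized counts in shCTRL tumours, 5804 with shNPTX1_3 and 3989 with shNPTX1_4, so 1 hairpin stood above control and the other below. Its log2 fold change per the authors' deposited table was -0.14 ± 0.15 (SE; DESeq2 adjusted p = 0.508), and the 95% Wald interval ran from -0.44 to 0.15. SRC, the founding member and a main partner of FAK, had means of 177, 178 and 131 normalized counts per the authors' deposited table, in the order shCTRL, shNPTX1_3, shNPTX1_4. SRC stood at 101% of control with shNPTX1_3 and at 74.2% with shNPTX1_4. Its log2 fold change of -0.24 (standard error 0.15, DESeq2 adjusted p = 0.25, both from the authors' deposited table) had a 95% interval from -0.54 to 0.06. As a fold, that interval ran from 0.690 to 1.05.

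FYN, which couples integrins and adhesion receptors to the cytoskeleton, had the lowest ratio to control of the 10 genes with both hairpins. The authors' deposited table gives it 117 normalized counts in shCTRL tumours, 13.7 with shNPTX1_3 and 56.6 with shNPTX1_4. FYN was thus at 11.7% of control with shNPTX1_3 and at 48.2% with shNPTX1_4. Both knockdown means were below the control mean, and the hairpins differed from each other by 1.97 on the log2 scale. FYN did not pass: its log2 fold change was -1.63 ± 0.70 (SE) per the authors' deposited table (DESeq2 adjusted p = 0.0678). That standard error was larger than those of 99.2% of 1865 genes within 1.5-fold of its level, whose median was 0.20. The fit treats both hairpins as 1 group, so the error of FYN holds the difference between hairpins as well as the spread between libraries, and the parts cannot be told apart from group means.

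LYN, a kinase best known from blood cells and also expressed in carcinomas, had its highest mean with shNPTX1_3. Its means were 74.1 normalized counts in shCTRL tumours, 148 with shNPTX1_3 and 77.5 with shNPTX1_4 per the authors' deposited table. LYN was at 199% of control with shNPTX1_3 and at 105% with shNPTX1_4. The log2 fold change of 0.53 (standard error 0.26 per the authors' deposited table) did not pass adjustment over all genes (DESeq2 adjusted p = 0.118). Per kilobase, FYN stood above LYN in control tumours (21.0 against 12.4 normalized counts), and LYN stood above FYN with shNPTX1_3 (24.6 against 2.46) and with shNPTX1_4 (13.0 against 10.1).

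Related kinases of blood cells were low. In the authors' deposited table FGR, LCK and BLK, kinases of myeloid and lymphoid cells, were under 10 normalized counts in every group. PTPRC, the common leukocyte antigen CD45, had 50.2, 43.2 and 41.7 normalized counts per the authors' deposited table. The summed means of the 13 blood cell markers were 922, 1018 and 817 normalized counts per the authors' deposited table, of which CD68 gave 697, 794 and 635, with 7 of the 13 under 10 in every group and CD2 at 0 in all. None of the 8 blood markers with an adjusted p passed per the authors' deposited table.

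FRK, an epithelial kinase related to the SRC family, rose 3.34-fold, with means of 33.7 normalized counts in shCTRL tumours, 179 with shNPTX1_3 and 61.7 with shNPTX1_4 (log2 fold change 1.74, standard error 0.38, DESeq2 adjusted p = 6.76e-05, the authors' deposited table). For FRK the group means could be searched for sums of whole reads. Only 1 split gave the shNPTX1_3 mean, at 166, 184 and 185 normalized counts in the 3 libraries, where 0.048 splits were expected by chance. For shCTRL, 2 splits gave the mean of FRK (0.17 expected by chance), and over both of them no library lies below 8.86 or above 76.4 normalized counts. Which of the 2 shCTRL splits holds is not known, and the shNPTX1_4 mean of FRK was not split.

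CSK, the kinase that silences the family, had the smallest spread between group means of the 10 genes. Its means were 480 normalized counts in shCTRL tumours, 450 with shNPTX1_3 and 459 with shNPTX1_4 per the authors' deposited table. The log2 fold change of CSK was -0.08 ± 0.08 (SE) by DESeq2 (adjusted p = 0.469, the authors' deposited table), and the 95% interval of the fold ran from 0.854 to 1.05. The median standard error of 2956 genes within 1.5-fold of its level was 0.11.

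Among the other regulators of SRC family activity, the genes that passed were lower. Of the 15 genes in that list, 0 rose and 6 fell, per the authors' deposited table (MATK, PAG1, PTPN12, PTPRE, PTPRJ and CBL, of which MATK, PTPRE and CBL were named after their values were seen), with a median log2 fold change of -0.21 over the list. PAG1, the membrane adaptor that docks CSK, went from 235 to 160 and 167 normalized counts per the authors' deposited table (log2 fold change -0.52, standard error 0.12). PTPN12 (PTP-PEST), a phosphatase of BCAR1 and paxillin, fell from 4200 normalized counts to 1877 with shNPTX1_3 and 2123 with shNPTX1_4 (0.48-fold, DESeq2 adjusted p = 4.16e-06, the authors' deposited table). PTPRJ, a receptor phosphatase, went from 2531 to 1619 and 1628 normalized counts per the authors' deposited table. For each of these 3 genes both hairpin means lay below control and close to each other. SYK, a kinase that phosphorylates VAV proteins and is named here after its values were seen, fell from 45.1 to 19.2 and 31.3 normalized counts (DESeq2 adjusted p = 0.0122, the authors' deposited table).

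PTK2, which encodes FAK, was the second most abundant of the 10 genes per kilobase. The authors' deposited table gives means of 4138 normalized counts in shCTRL tumours, 4216 with shNPTX1_3 and 4569 with shNPTX1_4. The log2 fold change was 0.10 ± 0.07 (SE) by DESeq2 (adjusted p = 0.294, the authors' deposited table), and the 95% interval of the fold ran from 0.975 to 1.17. With groups scaled to equal totals, the shNPTX1_3 ratio of PTK2 changed sign, from 0.03 to -0.07 on the log2 scale. PTK2B, the calcium-responsive relative of FAK, was far lower, with means of 93.0, 82.6 and 82.6 normalized counts for shCTRL, shNPTX1_3 and shNPTX1_4 per the authors' deposited table. Per kilobase, PTK2 exceeded PTK2B in every group (396 against 17.9 normalized counts in shCTRL). PTK2B gave a log2 fold change of -0.19 ± 0.20 (SE) per the authors' deposited table (DESeq2 adjusted p = 0.511).

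BCAR1, the scaffold whose phosphorylated substrate domain binds CRK, showed the smallest change of the set. Its means were 1028 normalized counts in shCTRL tumours, 1083 with shNPTX1_3 and 942 with shNPTX1_4 per the authors' deposited table. The log2 fold change of BCAR1 was -0.03 ± 0.12 (SE) per the authors' deposited table (DESeq2 adjusted p = 0.855). Its hairpin ratios lay on opposite sides of control, at 0.08 with shNPTX1_3 and -0.12 with shNPTX1_4 on the log2 scale, and the first became -0.02 with groups scaled to the same total.

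Around these kinases, the adhesion scaffolds that passed were lower. Of the 23 focal adhesion genes, 0 rose and 8 fell, per the authors' deposited table, with a median log2 fold change of -0.07. PXN, which encodes paxillin, a substrate of FAK and SRC, went from 4634 normalized counts to 3218 and 3177 (log2 fold change -0.54, standard error 0.11, the authors' deposited table). TNS1, a tensin that ties integrins to actin, had means of 64.5, 35.0 and 35.2 normalized counts per the authors' deposited table, and ASAP1, an ARF GTPase-activating protein bound by FAK and SRC, had 4652, 3025 and 2765. In the CAS and CRK-DOCK-ELMO list, 13 genes had an adjusted p, of which 0 rose and 3 fell, per the authors' deposited table: DOCK1 (0.806-fold), ELMO2 (0.79-fold) and SH2D3C, the last at under 10 normalized counts in every group and named after its values were seen. CRK and CRKL, the adaptors that bind BCAR1, did not pass per the authors' deposited table, with log2 fold changes of 0.22 and 0.10.

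VAV3 had the largest change of the 10 genes. Its product loads RAC GTPases with GTP and is found outside blood cells too. The authors' deposited table lists 15.8 normalized counts in shCTRL tumours, 193 with shNPTX1_3 and 24.5 with shNPTX1_4. With shNPTX1_3 the mean of VAV3 was 12.2-fold that of control, and with shNPTX1_4 it was 1.55-fold, so the shNPTX1_3 mean stood far above both others. Over both hairpins together VAV3 was higher, with a log2 fold change of 2.61 ± 0.82 (SE) and a DESeq2 adjusted p of 0.00919 per the authors' deposited table. The 95% interval of that fold ran from 1.99 to 18.7, and the standard error exceeded those of 99.6% of 1866 genes within 1.5-fold of its level. VAV3 reached the minimum of 2 CPM (38.6 normalized counts over all libraries) through shNPTX1_3 alone, since both other means were below it. Whether its level was high in each of the 3 shNPTX1_3 libraries could not be read from the mean, because no sum of whole reads gives that value. An antisense gene, VAV3-AS1, overlaps VAV3 in GENCODE, and no strand setting is stated for the counting, so reads of the overlap are uncertain.

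VAV2, the widely expressed relative, was lower, with its lowest mean in shNPTX1_4. Its means were 727 normalized counts in shCTRL tumours, 667 with shNPTX1_3 and 431 with shNPTX1_4 per the authors' deposited table. VAV2 stood at 91.8% of control with shNPTX1_3 and at 59.2% with shNPTX1_4. The log2 fold change was -0.46 ± 0.17 (SE) per the authors' deposited table, with a DESeq2 adjusted p of 0.0306, which does not pass at 0.01. VAV1, the member of blood cells, had 12.1, 9.32 and 10.3 normalized counts per the authors' deposited table and did not pass (DESeq2 adjusted p = 0.719). Of the summed per-kilobase level of the 3 VAV genes, VAV2 made up 95.5% in shCTRL, 77.9% in shNPTX1_3 and 91.6% in shNPTX1_4. VAV3 made up 1.87%, 20.3% and 4.70% in the same order, so VAV2 was the largest part in every group.

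**Figure D2:**
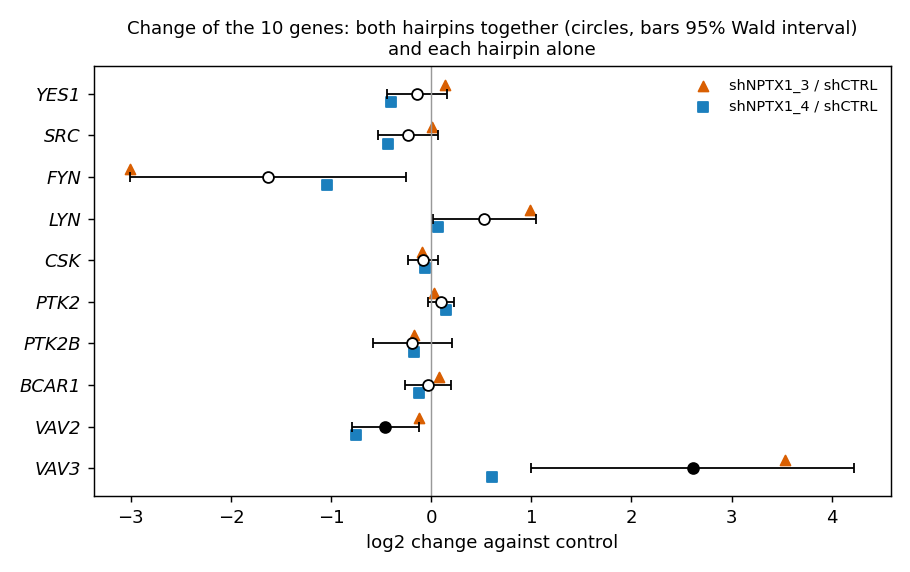
Log2 change against control of each gene: both hairpins together from the authors' deposited table (circles, filled where the adjusted p is under 0.05, bars the 95% Wald interval), shNPTX1_3 alone (triangles) and shNPTX1_4 alone (squares), the last 2 with a pseudocount of 1 and no test. VAV3 at 2.61 and VAV2 at -0.46 are filled, and the interval of FYN is the second widest after that of VAV3.

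Set beside each other, the hairpin means lay farthest apart for VAV3 and FYN. The difference between hairpins was not tested for any gene, since no values of single libraries are at hand for them. By the ratio of group means with a pseudocount of 1, FYN (log2 ratio -3.01) and VAV3 (3.53) were at least 2-fold from control with shNPTX1_3, and FYN (-1.04) with shNPTX1_4. Among 14131 genes of at least 2 CPM with no group at 0, 4.47% were that far from control with shNPTX1_3 (2.95% as higher, 1.51% as lower) and 2.71% with shNPTX1_4 (1.24% as lower). FYN and VAV3 were also the 2 members at least 2-fold apart between the hairpins, by -1.97 and 2.93 on the log2 scale (shNPTX1_3 over shNPTX1_4), against 2.68% of all 14131 genes. LYN came next at 0.92, followed by VAV2 at 0.63, YES1 at 0.54 and SRC at 0.43. Both hairpins lay on the same side of control for 7 of the 10 genes, against 76.2% of all genes, and on opposite sides for SRC, YES1 and BCAR1. The shNPTX1_3 mean was above the shNPTX1_4 mean for 7 of the 10, against 47.5% of all genes. The hairpin comparisons share their control libraries, so their directions are not independent of each other. VAV3 reached the minimum of 2 CPM through shNPTX1_3 alone, and the members were chosen with the knockdown comparison in view. Nothing is therefore read from setting them beside these shares.

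**Figure D3:**
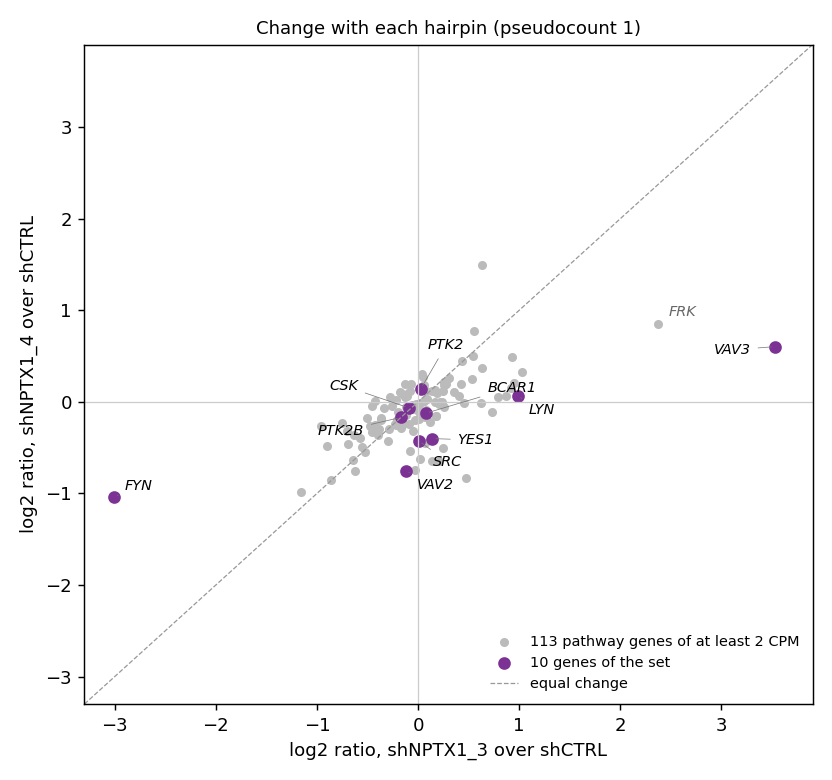
Log2 ratio to control with shNPTX1_3 (x axis) and shNPTX1_4 (y axis) for the 10 genes (purple, named) and 113 genes of the pathway lists at 2 CPM or more (grey), each from group means with a pseudocount of 1. The dashed line marks equal change. VAV3 and FYN lie far out along the shNPTX1_3 axis, and FRK is the pathway gene nearest to VAV3.

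Among the 123 genes of the set and its pathway lists at 2 CPM or more, the gene with the pattern most like VAV3 was FRK, at a distance of 1.18 in the pair of log2 ratios. For FYN the nearest was PTPN12, at 1.84, so no pathway gene lay close to either. LYN was nearest to the exchange factor KALRN (distance 0.11) and the GTPase RND3 (0.12), and VAV2 to the receptor phosphatase PTPRF (0.09). SRC and YES1 were both nearest to RHOQ (0.06 and 0.08), and SRC was the second nearest to YES1 (0.13). CSK lay nearest to RAC1 (0.02). This likeness rests on 3 group means and is a description.

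The main GTPases that VAV and DOCK proteins act on did not pass. RAC1, CDC42 and RHOA had log2 fold changes of -0.08, 0.22 and -0.05 per the authors' deposited table, and none passed (DESeq2 adjusted p = 0.368, 0.102 and 0.71).

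Other exchange factors changed in both directions. Of 19 such genes, 3 rose and 2 fell, per the authors' deposited table. TIAM1, a RAC exchange factor, rose from 119 normalized counts to 184 with shNPTX1_3 and 335 with shNPTX1_4 (2.31-fold, DESeq2 adjusted p = 2.01e-05, the authors' deposited table), so that shNPTX1_4 stood higher for TIAM1 and shNPTX1_3 for VAV3. NET1, a RHOA exchange factor, rose 1.61-fold and ARHGEF28 1.23-fold per the authors' deposited table. PREX1, a RAC exchange factor activated by phosphoinositides, fell from 271 to 144 and 194 normalized counts per the authors' deposited table, and SOS1, which acts on RAS and RAC, fell to 0.77-fold.

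Of 15 SRC substrates, 3 rose and 1 fell, per the authors' deposited table. EPS8, an actin capping and bundling protein, rose 1.44-fold and EZR, the membrane linker ezrin, 1.40-fold per the authors' deposited table. ANXA2, which binds membranes and actin, rose by 0.38 on the log2 scale per the authors' deposited table but lost its call with groups scaled to the same total (adjusted p = 0.0727), while the RNA-binding substrate KHDRBS1 (SAM68) fell to 0.80-fold. Under that scaling 2 substrates rose and 2 fell, with AFAP1 added as lower. CTTN, the invadopodium protein cortactin, did not pass per the authors' deposited table, with a log2 fold change of 0.13. Of 18 RAC and CDC42 effectors with an adjusted p, 3 rose and 6 fell, per the authors' deposited table. With groups scaled to equal totals these counts became 1 and 6, since PAK1 (adjusted p = 0.0935) and PARD6A (0.0591, named after its values were seen) lost their calls. LIMK1, the kinase of cofilin, rose 1.21-fold, and PAK1 rose 1.18-fold per the authors' deposited table. WASF3, PAK2 and PAK4 fell to 0.678-fold, 0.722-fold and 0.766-fold per the authors' deposited table. WASF3 belongs to the WAVE complex that drives ARP2/3 actin assembly, and PAK2 and PAK4 are kinases bound by RAC or CDC42.

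**Figure D4:**
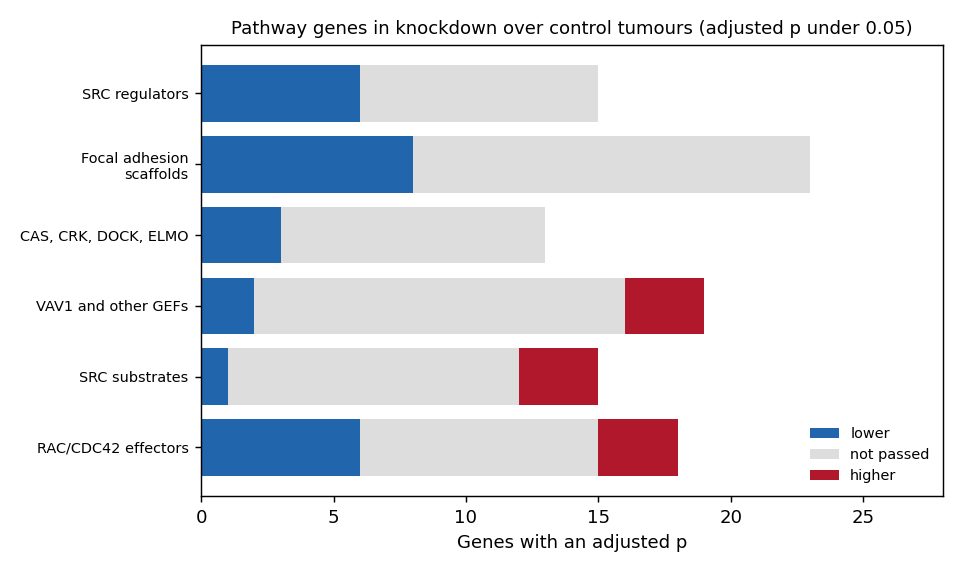
Number of genes with an adjusted p in each of 6 pathway lists that were lower (blue), did not pass (grey) or were higher (red) in knockdown tumours at an adjusted p under 0.05 per the authors' deposited table. SRC regulators, focal adhesion scaffolds and the CAS module hold lower genes and no higher ones.

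The lists were chosen with earlier results known, and nothing particular to them is read from these counts. Markers of other cells differed between groups as follows per the authors' deposited table: the 7 fibroblast and stellate cell markers summed to 1677, 6433 and 3382 normalized counts for shCTRL, shNPTX1_3 and shNPTX1_4, of which COL3A1 gave 731, 5517 and 2247, with 2 of 7 higher. The 10 hepatocyte markers summed to 161, 281 and 160 normalized counts with ALB under 1 in every group, and 2 of 10 were higher. The 6 endothelial markers summed to 384, 425 and 388 normalized counts with none called. Without COL3A1 the other 6 fibroblast markers summed to 945, 916 and 1135 normalized counts, highest with shNPTX1_4, and COL1A2 went from 74.3 to 17.8 and 17.5 per the authors' deposited table without passing. The summed means of all 5 marker lists, epithelial and blood cells included, were highest with shNPTX1_3, as were the means of VAV3, LYN and FRK. Without the most abundant marker of each list this held for the epithelial and hepatocyte sums, while the blood and endothelial sums were then highest with shCTRL. The counts do not show which cells, of the tumour line or of the host, gave the marker reads. The part of any cell type in the levels of VAV3, LYN and FRK was not tested.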

How the data were processed

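RNA-seq of 11 tumour libraries was used as deposited. Per the submitters' processing notes, STAR 2.7.6a, featureCounts 2.0.0, MultiQC 1.9 and DESeq2 1.24 were used with builds hg19 and mm39, without stated roles. The annotation, the strand setting and whether mouse reads were removed are unstated (not given in the sources used here). By its column names and values, the deposited table holds group means, a signal of counts divided by size factors and averaged by the authors, with a log2 fold change and its standard error, a Wald statistic (a score deposited by the authors), and the p-value and adjusted p of the authors.

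Of 23434 rows, 107 without a gene name, named by a date or repeated were left out (0.387% of mean counts). The edgeR test considered for single-library counts could not be run on group means, so the deposited DESeq2 comparison was used, at an adjusted p under 0.05. Ratios of group means used a pseudocount of 1, which understates changes of low genes, and a minimum of 2 CPM. The 95% Wald intervals were computed from the standard errors. Lengths were unions of coding-transcript exons in GENCODE 29, another build than that listed.

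Steps of 1 read gave each library's size factor, and depth was taken as that factor times the group's total. Low group means under 2 were whole reads within 1e-08 for 91.9%, 89.7% and 90.7% of genes with 1 RefSeq transcript in shCTRL, shNPTX1_3 and shNPTX1_4, and for 48.1%, 43.0% and 45.3% of genes with 2 or more. Splits into libraries are given only where under 0.5 chance matches were expected.

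The members, lists and rules were chosen with earlier results of these data known. All 10 members are named; of each list, up to 3 called genes per direction with the largest change at 2 CPM or more and both hairpins on the same side, plus blood-cell relatives. Genes given as not passing, and those whose call moved with scaling, were added after their values were seen, as were marker sums without the most abundant marker. Some list results are not reported here. Code was tested on simulated data, in Python 3.11.15 with pandas 2.3.3 and scipy 1.17.1.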

Additional observations from a re-analysis of the deposited data

How the results depend on the processing

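The calls of VAV3 (higher) and VAV2 (lower), and the 8 genes that did not pass, were the same under 2 other scalings and 2 other adjustments of the p-values. Over these, the adjusted p ran from 0.00753 to 0.0114 for VAV3, from 0.0118 to 0.0361 for VAV2 and from 0.0554 to 0.080 for FYN. At a DESeq2 adjusted p under 0.01, 0 members were lower, against 2 (FYN and VAV2) at an unadjusted p under 0.05. Scaling each group to the same total lowered every log2 fold change by 0.0661, and centring on the median shifted it by 0.0228. With shNPTX1_3 alone, 3 members changed sign against the joint comparison: SRC to 0.0074, YES1 to 0.14 and BCAR1 to 0.0755 on the log2 scale. These ratios have no standard error of their own, and each was smaller than the gene's standard error in the joint comparison. With groups scaled to the same total, the shNPTX1_3 ratio changed sign for SRC (-0.0862), PTK2 (-0.0671) and BCAR1 (-0.0186), and that of CSK moved from -0.09 to -0.19. Pseudocounts of 0.5 and 10 moved no ratio by more than the gene's standard error in the joint comparison. No paired analysis was possible because the table holds group means, and for the same reason no library could be left out. VAV3 in control tumours and FYN with shNPTX1_3 had low means, both under 20 normalized counts, and ratios that use these means are less certain.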
